A study of Drosophila melanogaster with 8 samples.

Results

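Odorant binding proteins (Obp genes) are a family of small secreted proteins of Drosophila melanogaster, and their RNA was followed here in cells of the testis. All rows of the deposited gene table whose symbol starts with Obp and a digit were taken, which gave 46 of the 16018 gene rows. Genes of the family with another kind of symbol, such as lush, are not among them. The family and its members below are these 46 rows. Of these members 24 passed the count filter of at least 1 CPM (counts scaled to 1000000 per library) in at least 2 libraries. The other 22 stayed below it and were not tested in the edgeR fit used throughout.

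Each odorant binding protein carries a hydrophobic ligand in a pocket closed by helices that disulfide bridges hold together. In the antenna, support cells secrete these proteins into the fluid around olfactory neurons, where they carry odours and pheromones to the receptors. The family also reaches beyond smell: some members are made in taste organs, fat body or glia, and several are transferred to females in seminal fluid. Cyst cells are the somatic cells that enclose the germline of the testis and accompany it from stem cell to spermatid bundle.

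The study marked cyst cells with GFP by crossing GAL4 driver flies to UAS-GFP flies and sorted the marked cells from dissociated whole testes by flow cytometry. The 4 groups were GFP-positive sorted cells of tj-GAL4 x UAS-GFP flies, GFP-positive sorted cells of eya-GAL4 x UAS-GFP flies, and the unsorted testis samples of each of these crosses. Each group held 2 libraries of poly(A)+ RNA that the labels call biological replicates, 8 libraries in all. All groups therefore carried UAS-GFP and a driver, tj-GAL4 standing for early and eya-GAL4 for mature cyst cells. The drivers came in different strains, so driver and strain cannot be told apart in any comparison between them. The age of the flies was not given in the sources used here. The eya-GAL4 unsorted libraries bear the numbers 3 and 4 in the deposited table and are called so below.

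The libraries held 10771009 to 25344721 counts in genes. Both driver genes were higher in sorted cells of both strains: tj, a transcription factor of early cyst cells, was higher in sorted than in unsorted cells by 4.42 ± 0.44 (log2 fold change ± SE) in tj-GAL4 and by 3.06 ± 0.41 in eya-GAL4. The gene eya, a transcriptional co-activator of later cyst cells, was higher by 2.63 ± 0.46 and by 1.86 ± 0.45 in the same comparisons. The level of eya overlapped between the sorted strains (edgeR adjusted p = 0.787), at 212 and 147 CPM in tj-GAL4 and 153 and 146 CPM in eya-GAL4. That of tj did not overlap, at 45.5 and 28.9 CPM in tj-GAL4 sorted, against 20.0 and 14.9 CPM in eya-GAL4 sorted cells. It did not pass the threshold between them (log2 1.09 ± 0.38, edgeR adjusted p = 0.418). Summed over 7 markers of early cyst cells, the level was 815 to 1057 CPM in tj-GAL4 sorted and 855 to 886 CPM in eya-GAL4 sorted cells, against 315 to 391 CPM in tj-GAL4 unsorted and 391 to 394 CPM in eya-GAL4 unsorted samples. Over 6 markers of mature cyst cells it was 602 to 871 CPM in tj-GAL4 sorted and 597 to 829 CPM in eya-GAL4 sorted cells, against 203 to 204 CPM in tj-GAL4 unsorted and 187 to 192 CPM in eya-GAL4 unsorted samples. Not every marker rose (edgeR adjusted p under 0.05). Of the early markers 4 were higher in tj-GAL4 sorted cells, and 4 higher and 1 lower in eya-GAL4. Of the mature markers 4 were higher and 1 lower in tj-GAL4, and 4 higher and 2 lower in eya-GAL4. Among all genes 8.98% were higher and 2.38% lower in tj-GAL4, and 28.0% higher and 20.0% lower in eya-GAL4. Markers of other cells were present too. The 6 spermatid markers summed to 1164 to 1940 CPM in tj-GAL4 and 1185 to 1284 CPM in eya-GAL4 sorted cells. Their unsorted sums were 2293 to 3648 CPM and 2061 to 2353 CPM. The 8 markers of pigment cells and terminal epithelium summed to 489 and 496 CPM in eya-GAL4 sorted, against 50.7 and 46.9 CPM unsorted. In tj-GAL4 they summed to 329 and 301 CPM sorted, against 173 and 444 CPM unsorted. This list shares the gene so with the mature cyst markers, so it does not measure other cells alone. One library stood apart: tj-GAL4 unsorted replicate 2 took 31.7% of its counts from mitochondrially encoded genes, and 4741 genes differed more than 2-fold between it and replicate 1, against 759 to 1311 genes in the other pairs of replicates. Its marker sums are given below beside the Obp results, and called results it moved by more than 1.5 times are also given without it.

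The whole family took a far larger share of the counts in sorted cells. It made up 2.18% (95% Wilson interval 2.17% to 2.19%) and 1.53% (1.53% to 1.54%) of gene counts in the tj-GAL4 sorted libraries. In the eya-GAL4 sorted libraries it made up 2.88% (2.87% to 2.89%) and 3.43% (3.42% to 3.44%). The tj-GAL4 unsorted libraries gave 0.111% (0.109% to 0.112%) and 0.163% (0.161% to 0.165%), and the eya-GAL4 unsorted libraries 0.101% (0.0997% to 0.103%) and 0.104% (0.102% to 0.105%). Every sorted library lay above every unsorted one, and these intervals cover counting error only. In a mixed sample, fewer cells of a type and less RNA per cell cannot be told apart.

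Obp44a and Obp99a carried nearly all of this. Together they held 99.3% to 99.5% of the family's counts in the 4 sorted libraries, against 52.8% to 72.2% in the 4 unsorted ones. The 7 members known as seminal fluid proteins held 0.321% to 0.560% in sorted libraries, against 22.7% to 41.4% in unsorted libraries. The remaining 37 members held 0.112% to 0.201% in sorted libraries, against 3.61% to 19.4% in unsorted libraries, the highest being tj-GAL4 unsorted replicate 2.

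**Figure D1:**
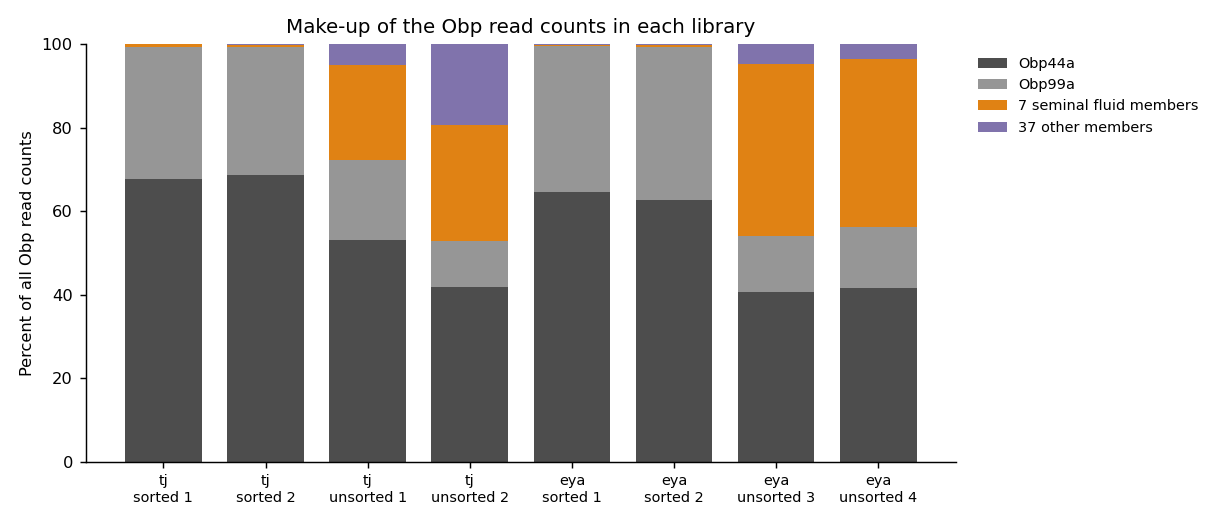
Share of the family's read counts (percent, from 0 to 100) taken by Obp44a, Obp99a, the 7 seminal fluid members and the 37 other members in each of the 8 libraries (tj and eya stand for tj-GAL4 and eya-GAL4). Obp44a and Obp99a fill at least 99.3% of each sorted bar and 52.8% to 72.2% of each unsorted bar.

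Obp44a, a lipid-carrying protein known from glia of the fly brain, was among the most abundant RNAs of the sorted cells. On a per-length scale (TPM, counts per gene length scaled to 1000000 per library, from the counts and the deposited gene lengths) its level was 21430 and 15256 TPM in tj-GAL4 sorted and 25480 and 27135 TPM in eya-GAL4 sorted cells. It was 904 and 824 TPM in tj-GAL4 unsorted and 649 and 673 TPM in eya-GAL4 unsorted samples. By TPM it ranked between 2nd and 4th of all genes in each sorted library, and between 112th and 189th in the unsorted libraries.

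Obp99a, a member of the cluster of Obp genes at the end of chromosome arm 3R, stood beside it. Its level was 17748 and 12053 TPM in tj-GAL4 sorted and 24410 and 27918 TPM in eya-GAL4 sorted cells, against 572 and 382 TPM in tj-GAL4 unsorted and 372 and 411 TPM in eya-GAL4 unsorted samples. It ranked between 2nd and 6th by TPM in sorted libraries, and between 195th and 422nd in unsorted ones. The TPM level of Obp44a was 0.97 to 1.27 times that of Obp99a in sorted cells, against 1.58 to 2.16 times in unsorted samples, so these ranges did not overlap.

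**Figure D2:**
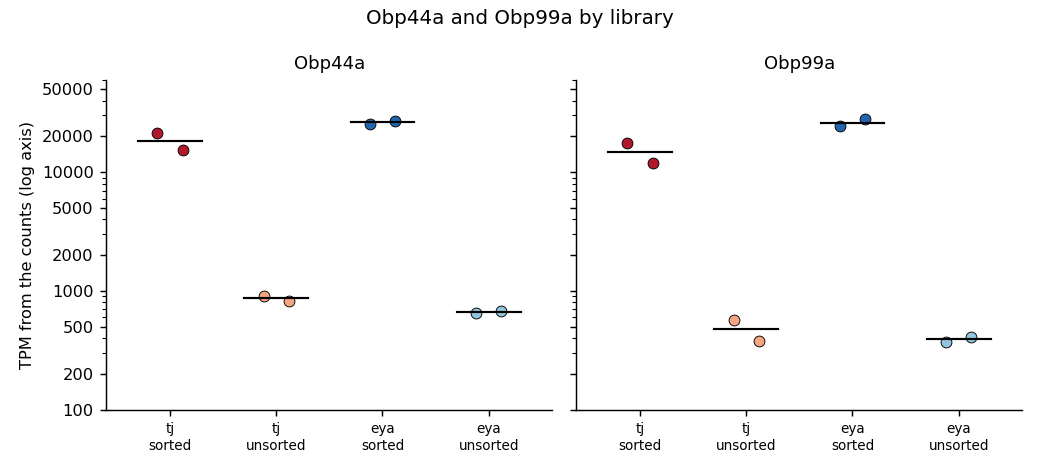
TPM of Obp44a and Obp99a (log axis) in the 8 libraries. Points are libraries and lines the arithmetic mean of the 2 libraries of a group; all sorted libraries lie at 12053 TPM or more and all unsorted ones at 904 TPM or less.

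Both genes passed the test in both strains. Obp44a had 15778 and 10329 CPM (13054 ± 3853, SD, n = 2) in tj-GAL4 sorted cells, against 504 and 894 CPM (699 ± 276) in tj-GAL4 unsorted samples. The fitted log2 fold change was 4.22 ± 0.53 (SE), an 18.7-fold higher level (adjusted p = 0.0030, edgeR's quasi-likelihood test with Benjamini-Hochberg adjustment over 12570 genes). The eya-GAL4 values were 20673 and 26179 CPM (23426 ± 3894, SD, n = 2) in sorted cells, against 316 and 354 CPM (335 ± 27.2) in unsorted samples. There the log2 fold change was 6.13 ± 0.58, or 69.9-fold (adjusted p = 0.00040 in the same edgeR fit).

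Obp99a had 7408 and 4626 CPM (6017 ± 1967, SD, n = 2) in tj-GAL4 sorted cells, against 181 and 235 CPM in tj-GAL4 unsorted samples. This was a log2 fold change of 4.86 ± 0.50, or 29.0-fold (edgeR adjusted p = 0.0015). Its eya-GAL4 values were 11228 and 15270 CPM (13249 ± 2858, SD, n = 2) in sorted cells, against 103 and 123 CPM in unsorted samples, a log2 fold change of 6.88 ± 0.55, or 117-fold (edgeR adjusted p = 0.00031). The groups did not overlap for either gene in either strain. Both genes kept their calls whichever of the 8 libraries was left out, with log2 fold changes of 3.86 to 4.67 (Obp44a) and 4.45 to 5.16 (Obp99a) in tj-GAL4, and of 5.95 to 6.30 and 6.64 to 7.09 in eya-GAL4. Fitted on the tj-GAL4 libraries alone, Obp99a stayed past the threshold and Obp44a did not (adjusted p = 0.054).

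The tj-GAL4 replicate 1 libraries were made with indexes of 6 bases and all others with indexes of 8. Within the 6-base pair, Obp44a was 31.3 times and Obp99a 41.0 times as high in sorted as in unsorted cells. Within the 8-base pair the ratios were 11.5 and 19.7. Obp44a lies on chromosome arm 2R (dm6, 8134170 to 8135315, minus strand), and 205 of its 1076 exonic bases are also exonic, on the other strand, in Pabp2. Pabp2, which encodes a poly(A) binding protein, stood at 40.7 to 52.8 CPM in sorted and 37.2 to 48.4 CPM in unsorted libraries, and its part in the Obp44a counts was not tested. Obp99a (arm 3R, dm6, 29671657 to 29672334, plus strand) shares no exonic base with another annotated gene.

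Over the 24 tested members, 7 changed in the tj-GAL4 comparison, 2 higher and 5 lower. Among all genes tested the call rate was 11.4% (8.98% higher and 2.38% lower), against 29.2% of the tested members. In the eya-GAL4 comparison 7 members changed as well, 4 higher and 3 lower, where the call rate over all genes was 48.0% (28.0% higher and 20.0% lower). The median log2 fold change of the tested members was -1.19 in tj-GAL4 and -0.52 in eya-GAL4, beside medians of -0.08 and -0.09 over all genes. Because a scarce gene passes the filter only through the group where it is high, these counts describe the tested members and not the family. The same 2 members rose in both comparisons, Obp44a and Obp99a, and the same 2 fell in both, Obp56e and Obp56f.

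By structural class, the 6 Minus-C members, which lack a pair of the conserved cysteines, were Obp8a, Obp44a, Obp99a, Obp99b, Obp99c and Obp99d. Of these 2 rose and 2 fell in tj-GAL4 (median log2 -0.97), and 2 rose in eya-GAL4 (median 1.18). Of 27 classic members 11 were tested, of which 2 fell in tj-GAL4 (median -1.63), and 2 rose and 3 fell in eya-GAL4 (median -1.15).

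These totals depended on single libraries and on the fit. In tj-GAL4 only Obp44a and Obp99a were called without sorted replicate 1 and without sorted replicate 2, beside 2.22% and 5.40% of all genes. There 12 of 20 tested members were called without unsorted replicate 1 (26.8% of all genes), 10 of 22 without unsorted replicate 2 (35.8%), and 1 of 20 when only the tj-GAL4 libraries were fitted (2.15%). In eya-GAL4, 3 members were called without sorted replicate 1, without sorted replicate 2 and without unsorted replicate 4, beside 20.6%, 15.6% and 11.1% of all genes. The eya-GAL4 calls came to 13 of 20 without tj-GAL4 unsorted replicate 1, 12 of 22 without tj-GAL4 unsorted replicate 2 and 14 of 19 in the eya-GAL4 libraries alone, where 66.8%, 67.5% and 74.1% of all genes were called. Under the deposited RPM (reads scaled to 1000000 mapped reads, pseudocount 1, limma) 5 members were called in tj-GAL4, 2 higher and 3 lower (4.69% of all genes), and 4 in eya-GAL4, 3 higher and 1 lower (17.9% of all genes). At pseudocount 0.1 the eya-GAL4 calls were 4 higher and 1 lower (21.4% of all genes). That scaling moved the eya-GAL4 median of all genes by -0.38 on the log2 scale.

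**Figure D3:**
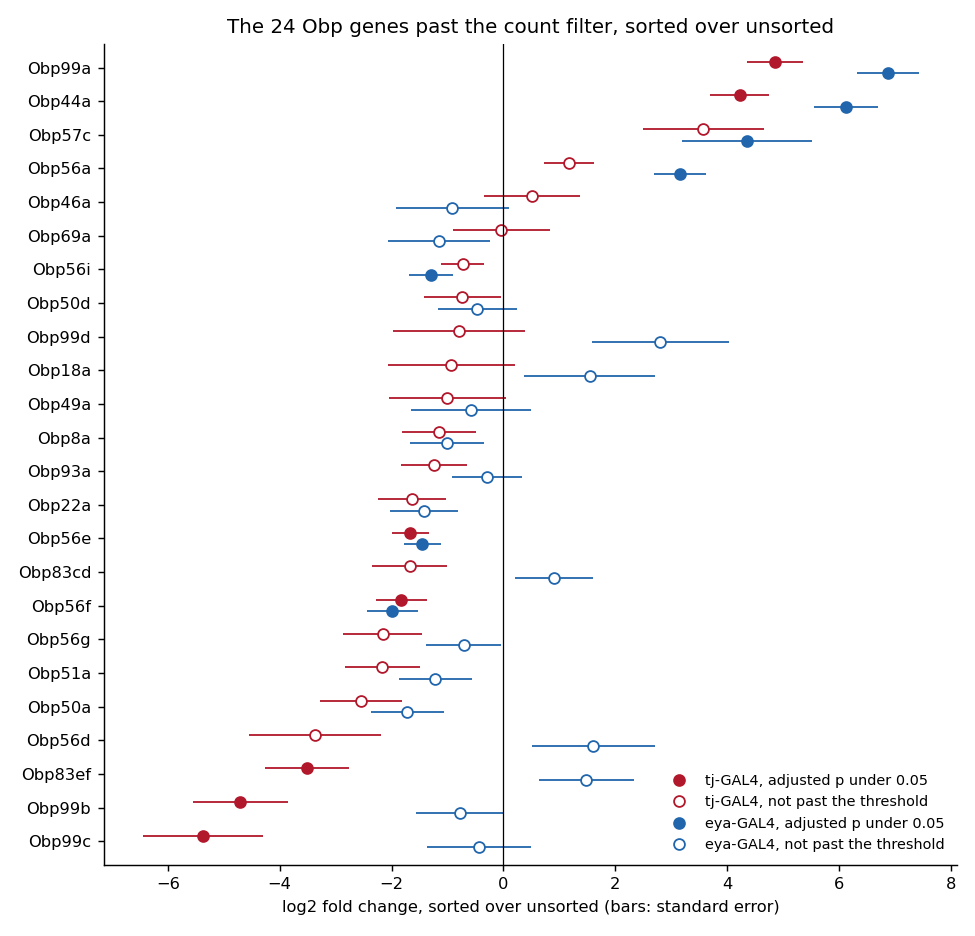
Log2 fold change (x axis, bars are SE) of sorted over unsorted cells for the 24 tested Obp genes in tj-GAL4 (upper, red) and eya-GAL4 (lower, blue), ordered by the tj-GAL4 value. Filled points passed an adjusted p of 0.05; Obp44a and Obp99a lie at 4.22 to 6.88 in both strains, while Obp99b and Obp99c lie at -4.70 and -5.38 in tj-GAL4, against -0.78 and -0.44 in eya-GAL4.

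The neighbours of Obp99a ran the other way in tj-GAL4. Obp99c, Obp99d and Obp99b lie on the same arm, Obp99c starting 13401 bases beyond Obp99a (dm6, 29685736 to 29689311), and none approached its level. Obp99b was first described as a gene of the head fat body expressed more in males. It had 1.65 and 2.36 CPM in tj-GAL4 sorted cells, against 13.7 and 92.5 CPM in tj-GAL4 unsorted samples, and fell by 4.70 ± 0.85 on the log2 scale (edgeR adjusted p = 0.0119). Obp99c had 1.27 and 2.29 CPM in tj-GAL4 sorted cells, against 13.3 and 138 CPM in tj-GAL4 unsorted samples, and fell by 5.38 ± 1.07 (edgeR adjusted p = 0.0174). The groups did not overlap for either gene, and the unsorted replicates lay further apart than the sorted ones.

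Without tj-GAL4 unsorted replicate 2 the log2 fold changes were -2.78 for Obp99b (adjusted p = 0.00057) and -2.90 for Obp99c (adjusted p = 0.0016). Without unsorted replicate 1 they were -5.50 and -6.23. Both calls were lost when either tj-GAL4 sorted replicate was left out, with adjusted p between 0.085 and 0.209. In eya-GAL4, Obp99b had 2.38 and 2.12 CPM in sorted cells, against 2.93 and 4.76 CPM in unsorted samples (log2 -0.78 ± 0.78, adjusted p = 0.414). Obp99c had 2.38 and 4.43 CPM in eya-GAL4 sorted cells, against 6.41 and 3.03 CPM in eya-GAL4 unsorted samples (log2 -0.44 ± 0.93, adjusted p = 0.701).

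The fourth gene of the cluster, Obp99d, had 0 and 0.891 CPM in tj-GAL4 sorted cells, against 0.260 and 1.57 CPM in tj-GAL4 unsorted samples. It had 2.38 and 2.002 CPM in eya-GAL4 sorted cells, against 0.249 and 0.356 CPM in eya-GAL4 unsorted samples. These eya-GAL4 groups did not overlap, but the gene passed the threshold in neither comparison (adjusted p = 0.645 in tj-GAL4 and 0.0857 in eya-GAL4).

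Fat body markers moved with Obp99b and Obp99c. The 10 fat body markers summed to 28.5 and 35.3 CPM in tj-GAL4 sorted cells and 23.5 and 22.4 CPM in eya-GAL4 sorted cells. They summed to 103 and 411 CPM in tj-GAL4 unsorted and 49.4 and 52.3 CPM in eya-GAL4 unsorted samples. Of 8 tested fat body markers 5 were lower in tj-GAL4 sorted cells (median log2 -3.01) and 1 in eya-GAL4 sorted cells (median -0.27), and no marker was at 0 in every library. The most abundant were apolpp, the precursor of the lipid transport particle, at 125 CPM, and Lsp1beta, a storage protein, at 124 CPM in tj-GAL4 unsorted replicate 2. The 6 gut markers, led by the digestive protease gene Jon65Aiii and by Peritrophin-15a, a protein of the gut lining, summed to 1939 CPM in that library and to 14.1 to 195 CPM in the other 7. The tj-GAL4 unsorted replicate 1, at 60.9 CPM, stood close to tj-GAL4 sorted replicate 1, at 59.1 CPM, and 1 of 5 tested gut markers was lower in tj-GAL4 sorted cells and none in eya-GAL4.

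Muscle markers, from the sheath of the testis among other tissues, had lower sums in sorted cells too. All 9, among them the myosin heavy chain gene Mhc, were lower in tj-GAL4 sorted cells (median log2 -3.42), and 2 were lower in eya-GAL4 sorted cells (median -0.79). They summed to 133 and 84.2 CPM in tj-GAL4 sorted and 357 and 331 CPM in eya-GAL4 sorted cells, against 1004 and 1032 CPM in tj-GAL4 unsorted and 491 and 979 CPM in eya-GAL4 unsorted samples. The muscle sums lay close together in the tj-GAL4 unsorted libraries. Other marker sums also differed between these libraries. From replicate 1 to replicate 2 those of spermatids, accessory gland and pigment cells rose, and those of early germline, spermatocytes and hemocytes fell. The muscle, fat body and gut calls stand beside 2.38% of all genes lower in tj-GAL4 and 20.0% in eya-GAL4. The part of these tissues in the Obp values was not tested.

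**Figure D4:**
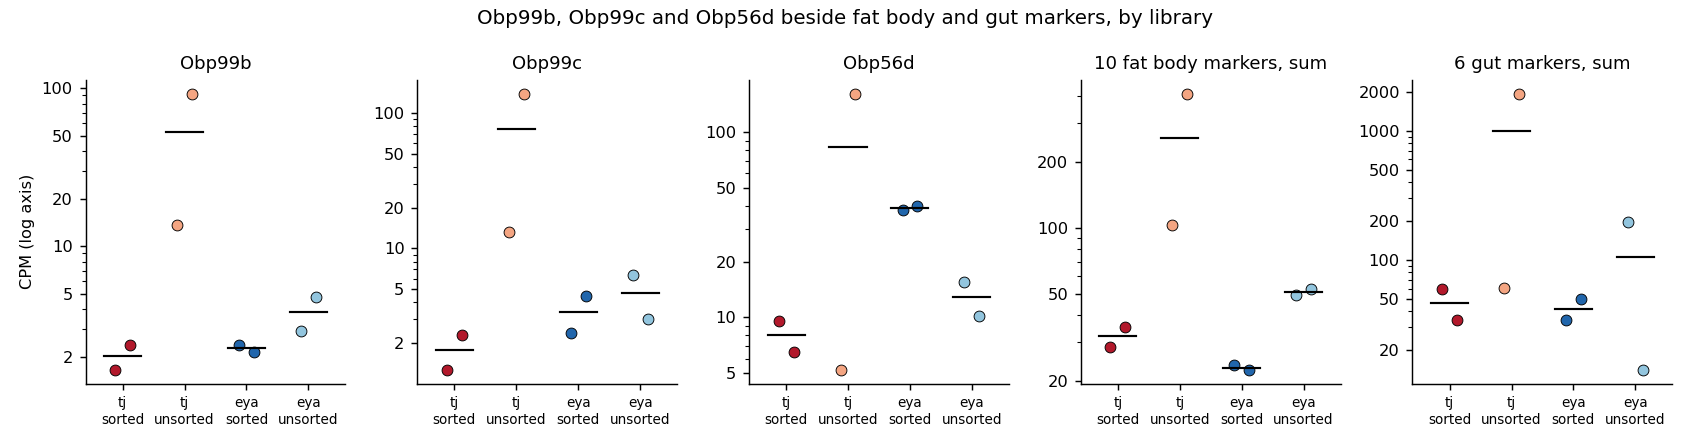
CPM (log axes) of Obp99b, Obp99c and Obp56d and summed CPM of 10 fat body and 6 gut markers in the 8 libraries. Points are libraries and lines the arithmetic mean of each group; tj-GAL4 unsorted replicate 2 is the highest library in all 5 panels, with 92.5, 138, 162, 411 and 1939 CPM.

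Obp56d, a classic member known from antenna and mouthparts, set the libraries apart in a different way. It had 9.59 and 6.55 CPM in tj-GAL4 sorted cells, against 5.21 and 162 CPM in tj-GAL4 unsorted samples, where the groups overlapped (log2 -3.37 ± 1.18, edgeR adjusted p = 0.1002). It had 38.3 and 40.0 CPM in eya-GAL4 sorted cells, against 15.5 and 10.2 CPM in eya-GAL4 unsorted samples, where they did not (log2 1.61 ± 1.10, adjusted p = 0.244).

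A smaller rise was called in eya-GAL4 for Obp56a and Obp57c. Obp56a, the first gene of the Obp56 cluster on arm 2R, had 9.52 and 13.7 CPM (11.6 ± 2.92, SD, n = 2) in eya-GAL4 sorted cells, against 1.06 and 1.51 CPM in unsorted samples. This was a log2 fold change of 3.16 ± 0.46, or 8.93-fold (edgeR adjusted p = 0.0021), and it remained called whichever library was left out (log2 2.88 to 3.43). In tj-GAL4 it had 3.44 and 3.22 CPM in sorted cells, against 1.12 and 1.89 CPM in unsorted samples (log2 1.17 ± 0.44, adjusted p = 0.122). Its neighbours Obp56b and Obp56c had at most 9 and 50 reads in any library, both in tj-GAL4 unsorted replicate 2, and were not tested in edgeR. Without tj-GAL4 unsorted replicate 2 Obp56a was called in tj-GAL4 as well (log2 1.54, adjusted p = 0.0280).

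Obp57c had 13 and 37 reads in the eya-GAL4 sorted libraries, against 3 and 0 reads in the eya-GAL4 unsorted ones. Only in sorted libraries did it reach the filter of 1 CPM, so it entered the test through the cells where it was high. Summed over libraries, the level was 24.6 times as high in sorted cells, with an exact 95% interval of 7.94 to 123 for counting error only. The edgeR adjusted p was 0.0181, and the call was lost without eya-GAL4 sorted replicate 1 (0.052), without sorted replicate 2 (0.101) and without unsorted replicate 4 (0.103, at a log2 fold change of 3.22 in place of 4.35). Without unsorted replicate 3 the unsorted count was 0, and the adjusted p was 0.0341. In tj-GAL4 it had 18 and 40 reads in sorted libraries, against 5 and 0 reads in unsorted ones, 11.7 times as high (4.75 to 37.5, adjusted p = 0.0693). It was called in tj-GAL4 without unsorted replicate 1 (adjusted p = 0.0134, the other unsorted library having no read) and without unsorted replicate 2 (log2 2.90, adjusted p = 0.0375). Of the other genes at this locus, Obp57a, Obp57b and Obp57e had at most 14 reads in any library and were not tested.

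The seminal fluid members formed the largest part of the unsorted family outside Obp44a and Obp99a. These are Obp8a, Obp22a, Obp51a, Obp56e, Obp56f, Obp56g and Obp56i, and all 7 were tested. Of them 2 fell in tj-GAL4 (median log2 -1.67), where 2.38% of all genes fell, and 3 in eya-GAL4 (median -1.29), where 20.0% did, and none rose. Their summed level was 116 and 84.3 CPM in tj-GAL4 sorted and 103 and 185 CPM in eya-GAL4 sorted cells. It was 216 and 594 CPM in tj-GAL4 unsorted and 321 and 342 CPM in eya-GAL4 unsorted samples.

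Obp51a was the most abundant of them and, by mean TPM over the 8 libraries (628 TPM), the member next below Obp44a (11544 TPM) and Obp99a (10483 TPM). It had 81.6 and 51.2 CPM in tj-GAL4 sorted cells, against 112 and 483 CPM in tj-GAL4 unsorted samples, with no overlap but a wide unsorted spread (log2 -2.17 ± 0.67, edgeR adjusted p = 0.0732). The eya-GAL4 values were 57.2 and 122 CPM in sorted cells, against 210 and 208 CPM in unsorted samples (log2 -1.22 ± 0.65, adjusted p = 0.144). It passed the threshold in tj-GAL4 without unsorted replicate 1, at -2.87, and was at -0.78 without unsorted replicate 2. The eya-GAL4 value was -1.86 without sorted replicate 2, and it passed the threshold without tj-GAL4 unsorted replicate 1 or 2 (log2 -1.23 and -1.25, adjusted p = 0.0101 in each).

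Obp56e and Obp56f are neighbours 462 bases apart on arm 2R, and both passed the test in both strains. Obp56e had 3.82 and 4.30 CPM in tj-GAL4 sorted cells, against 13.1 and 12.7 CPM in tj-GAL4 unsorted samples, and fell by 1.67 ± 0.33 (edgeR adjusted p = 0.0170). Its eya-GAL4 values were 5.79 and 7.22 CPM in sorted cells, against 15.3 and 20.3 CPM in unsorted samples, and fell by 1.45 ± 0.33 (adjusted p = 0.0101). Of its 532 exonic bases 449 are also exonic in asRNA:CR44509 on the other strand, which had 0.303 to 0.931 CPM in sorted and 0.670 to 3.14 CPM in unsorted libraries. Strand handling in the counting was not given in the sources used here, so how reads of the shared bases were counted is not known.

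Obp56f had 6.29 and 7.09 CPM in tj-GAL4 sorted cells, against 13.8 and 33.9 CPM in tj-GAL4 unsorted samples, and fell by 1.83 ± 0.45 (edgeR adjusted p = 0.0371). In eya-GAL4 it had 5.07 and 5.46 CPM in sorted cells, against 17.4 and 24.5 CPM in unsorted samples, and fell by 1.99 ± 0.46 (adjusted p = 0.0110). No group overlapped its counterpart for Obp56e or Obp56f. The tj-GAL4 calls of both genes were lost without either sorted replicate, that of Obp56f also without any 1 eya-GAL4 library, and its value was -1.07 without tj-GAL4 unsorted replicate 2. Their eya-GAL4 calls were lost without sorted replicate 1, sorted replicate 2 or unsorted replicate 4, at adjusted p of 0.056 to 0.088.

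Obp56i, at the far end of the cluster, had 4.87 and 9.84 CPM in tj-GAL4 sorted cells, against 12.6 and 11.9 CPM in unsorted samples (log2 -0.73 ± 0.39, edgeR adjusted p = 0.227). In eya-GAL4 it had 6.31 and 5.95 CPM in sorted cells, against 13.8 and 16.1 CPM in unsorted samples, and fell by 1.29 ± 0.39 (adjusted p = 0.0285), a call lost without any 1 of these 4 libraries. Obp56g, a protein of the ejaculatory bulb that enters the mating plug, averaged 98.1 TPM over the 8 libraries, next below Obp51a, although other members stood above it in single libraries. It had 9.96 and 4.88 CPM in tj-GAL4 sorted cells, against 54.2 and 11.6 CPM in tj-GAL4 unsorted samples (log2 -2.16 ± 0.70, adjusted p = 0.0836). The tj-GAL4 value was -0.68 without unsorted replicate 1, -2.91 and past the threshold without unsorted replicate 2 (adjusted p = 0.00048), and -2.80 without sorted replicate 1. Its eya-GAL4 values were 18.4 and 35.1 CPM in sorted cells, against 40.4 and 47.5 CPM in unsorted samples (log2 -0.71 ± 0.67, adjusted p = 0.388).

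Obp22a and Obp8a passed the threshold in neither comparison. Obp22a had 8.39 and 6.005 CPM in tj-GAL4 sorted and 9.21 and 7.40 CPM in eya-GAL4 sorted cells, against 8.22 and 36.5 CPM in tj-GAL4 unsorted and 21.8 and 22.5 CPM in eya-GAL4 unsorted samples. Obp8a had 1.27 and 1.05 CPM in tj-GAL4 sorted and 0.931 and 1.82 CPM in eya-GAL4 sorted cells, against 1.23 and 4.01 CPM in tj-GAL4 unsorted and 2.24 and 3.43 CPM in eya-GAL4 unsorted samples. For both, the tj-GAL4 groups overlapped and the eya-GAL4 groups did not.

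Markers of the male accessory gland also had lower sums in sorted cells. The 9 markers summed to 791 and 687 CPM in tj-GAL4 sorted and 772 and 620 CPM in eya-GAL4 sorted cells, against 966 and 2717 CPM in tj-GAL4 unsorted and 2471 and 3468 CPM in eya-GAL4 unsorted samples. All 9 were detected in every library, led by Acp36DE, a sperm storage protein, and Acp95EF. Of the 9, 2 were lower in tj-GAL4 sorted cells (median log2 -1.52) and 6 in eya-GAL4 sorted cells (median -1.68). Of all genes 2.38% and 20.0% were lower in these comparisons. From tj-GAL4 unsorted replicate 1 to replicate 2 the gland sum rose, as did Obp8a, Obp22a, Obp51a and Obp56f. Over the same libraries Obp56g fell from 54.2 to 11.6 CPM, and Obp56e and Obp56i changed little. The 8 markers of ejaculatory duct and bulb, led by Est-6, an esterase of the duct, and EbpIII, a bulb protein, summed to 864 and 496 CPM in tj-GAL4 sorted and 1036 and 2110 CPM in eya-GAL4 sorted cells. They summed to 959 and 2040 CPM in tj-GAL4 unsorted and 1340 and 1882 CPM in eya-GAL4 unsorted samples. Of the 7 tested duct and bulb markers none was called in tj-GAL4 (median log2 -1.74). In eya-GAL4 only EbpIII was called, as higher (median -0.55), where 28.0% of all genes were higher. The part of these organs in the Obp values was not tested.

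**Figure D5:**
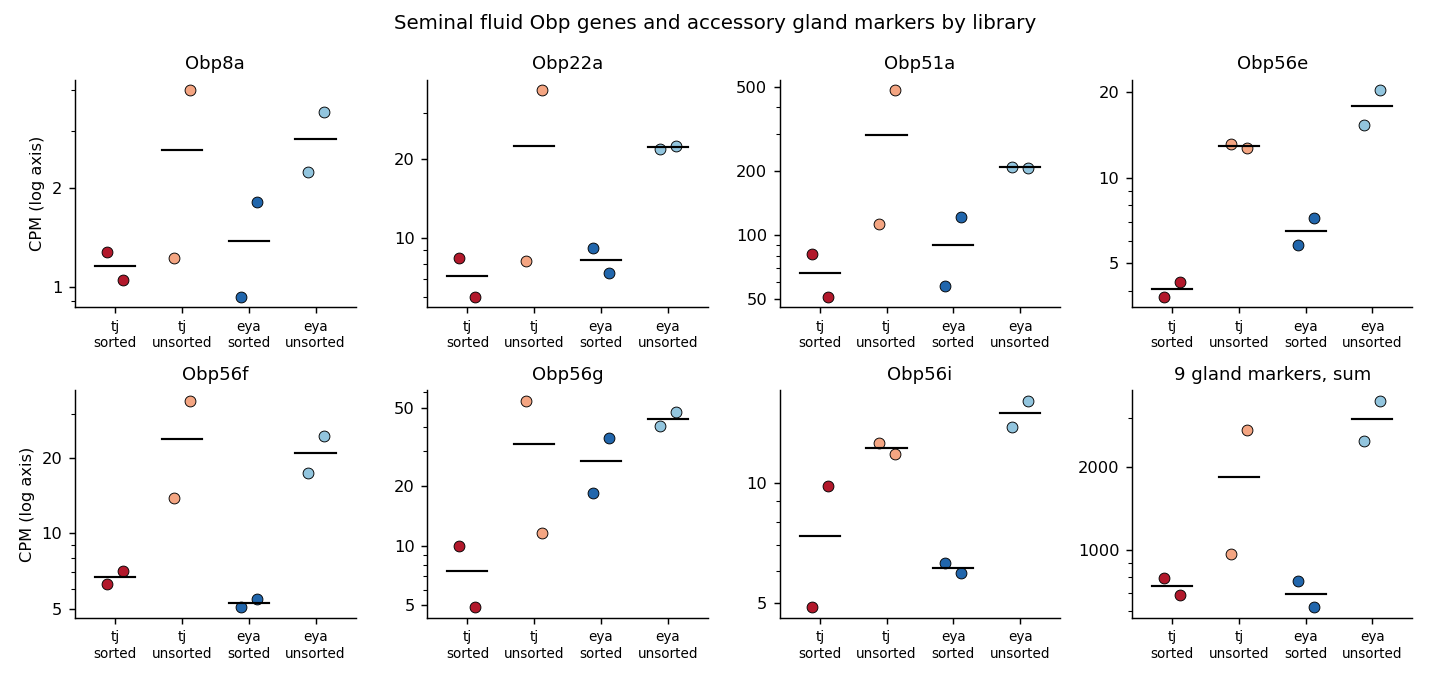
CPM (log axes) of the 7 seminal fluid Obp genes and summed CPM of 9 accessory gland markers in the 8 libraries. Points are libraries and lines the arithmetic mean of each group; sorted cells lie below unsorted samples without overlap in both strains for Obp51a, Obp56e, Obp56f, Obp56g, Obp56i and the gland markers.

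The dimer members Obp83cd and Obp83ef each join a pair of binding domains in 1 protein and lie end to end on arm 3R, sharing 92 exonic bases on opposite strands. Obp83ef had 4 and 2 reads in tj-GAL4 sorted libraries, against 56 and 24 reads in tj-GAL4 unsorted ones (0.300 and 0.0775 CPM, against 2.08 and 1.89 CPM). It fell by 3.51 ± 0.75 on the log2 scale (edgeR adjusted p = 0.0230). Only in the tj-GAL4 unsorted libraries did it reach the filter of 1 CPM, so it entered the test through the group where it was high. The call was lost without sorted replicate 1 (-4.60), sorted replicate 2 (-2.70) or either eya-GAL4 sorted replicate, with adjusted p of 0.053 to 0.092, and the gene fell below the filter without either tj-GAL4 unsorted replicate. In eya-GAL4 it had 3 and 7 reads in sorted libraries, against 2 and 3 reads in unsorted ones (log2 1.48 ± 0.84, adjusted p = 0.166).

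Obp83cd had 0.225 and 0.542 CPM in tj-GAL4 sorted cells, against 1.34 and 1.26 CPM in tj-GAL4 unsorted samples (log2 -1.67 ± 0.67, adjusted p = 0.140). In eya-GAL4 it had 1.14 and 0.607 CPM in sorted cells, against 0.560 and 0.356 CPM in unsorted samples (log2 0.90 ± 0.70, adjusted p = 0.294). Both strains kept their groups apart for this gene.

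The other tested members were scarce and passed the threshold in no comparison. Among the Plus-C members, which carry additional conserved cysteines, 5 of 11 were tested: Obp46a, Obp49a, which acts in taste, Obp50a, Obp50d and Obp93a. Together the 11 Plus-C genes summed to 3.44 and 4.997 CPM in tj-GAL4 sorted and 3.31 and 2.79 CPM in eya-GAL4 sorted cells, against 6.59 and 5.34 CPM in tj-GAL4 unsorted and 5.04 and 5.92 CPM in eya-GAL4 unsorted samples. Obp50a came nearest to the threshold, with 0.0749 and 0.116 CPM in tj-GAL4 sorted and 0.310 and 0.303 CPM in eya-GAL4 sorted cells, against 0.670 and 0.550 CPM in tj-GAL4 unsorted and 0.934 and 1.11 CPM in eya-GAL4 unsorted samples. Its adjusted p was 0.060 in tj-GAL4 and 0.057 in eya-GAL4. Of the 591 exonic bases of Obp93a, 492 are shared with CG5793 on the other strand, and its values of 0.414 to 1.65 CPM are uncertain for that reason.

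The members listed for antennal support cells stayed near the limit of detection. Obp56d, described above, is not on that list. Of the 7 measured genes known from antennal support cells, Obp19a, Obp19d, Obp28a, Obp59a, Obp69a, Obp83b and Obp84a, only Obp69a was tested. Their summed level was 2.40 and 2.25 CPM in tj-GAL4 sorted and 0.724 and 1.88 CPM in eya-GAL4 sorted cells, against 2.53 and 1.41 CPM in tj-GAL4 unsorted and 1.81 and 2.40 CPM in eya-GAL4 unsorted samples. Obp69a, which acts in the response to the male pheromone cVA, had 0.599 and 1.32 CPM in tj-GAL4 sorted and 0.310 and 0.971 CPM in eya-GAL4 sorted cells, against 1.67 and 0.236 CPM in tj-GAL4 unsorted and 1.25 and 1.74 CPM in eya-GAL4 unsorted samples. Obp18a, a classic member, had 1.35 and 0.620 CPM in tj-GAL4 sorted and 1.34 and 1.94 CPM in eya-GAL4 sorted cells, against 0.149 and 3.69 CPM in tj-GAL4 unsorted and 0.747 and 0.400 CPM in eya-GAL4 unsorted samples.

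The 22 members below the filter had at most 50 reads in any library. Obp56c had the most in all, 94 reads, and was called lower in tj-GAL4 sorted cells by DESeq2, which was run without the filter. Obp58d had the fewest, 1 read. Only 4 of the 22 were detected in all 8 libraries. A count of 0 allows a level of up to 0.112 to 0.310 CPM, depending on the library (3 reads), so a 0 does not show absence.

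Other genes of odour detection did not follow Obp44a and Obp99a as a group. The odour binding gene lush, the odorant co-receptor Orco and the antennal protein gene a10 stayed below the filter, at 0 to 0.534 CPM. Of 10 listed genes of odour detection outside the 46 rows, lush among them, 5 were tested (median log2 -1.68 in tj-GAL4 and -0.27 in eya-GAL4). The 10 include EbpIII, Est-6 and Jhedup, which are also on the list of ejaculatory duct and bulb markers. Calls in this list stand beside 2.38% of all genes lower in tj-GAL4 and 28.0% higher in eya-GAL4. In tj-GAL4 1 fell, Phk-3, a gene of the insect chemosensory protein family (log2 -1.69 ± 0.40, edgeR adjusted p = 0.031). In eya-GAL4 2 rose: EbpIII (log2 3.67 ± 0.58, adjusted p = 0.0029) and Snmp1, a membrane protein of pheromone sensing (log2 3.91 ± 1.03, adjusted p = 0.0176).

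EbpIII, which is itself counted among the chemosensory protein genes, had 349 and 226 CPM in tj-GAL4 sorted and 559 and 788 CPM in eya-GAL4 sorted cells, against 51.04 and 161 CPM in tj-GAL4 unsorted and 50.3 and 55.6 CPM in eya-GAL4 unsorted samples. Snmp1 had 1.87 and 1.36 CPM in tj-GAL4 sorted and 1.65 and 2.49 CPM in eya-GAL4 sorted cells, against 0.298 and 2.20 CPM in tj-GAL4 unsorted and 0.187 and 0.0890 CPM in eya-GAL4 unsorted samples. Snmp2 had 0.774 to 1.33 CPM in sorted and 1.67 to 3.61 CPM in unsorted libraries and passed the threshold in neither comparison.

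The receptor families were scarce. The calls below stand beside 8.98% higher and 2.38% lower of all genes in tj-GAL4, and 28.0% higher and 20.0% lower in eya-GAL4. Of 54 odorant receptor rows (Or and Orco) 10 were tested, of which 2 fell and none rose in tj-GAL4 (median log2 -0.23), and 1 rose and 4 fell in eya-GAL4 (median -1.89). Of 63 ionotropic receptor rows 16 were tested, of which 1 rose in tj-GAL4 (median -0.69), and 1 rose and 5 fell in eya-GAL4 (median -1.32). Of 52 gustatory receptor rows 13 were tested, of which 3 rose in tj-GAL4 (median 0.18), and 4 rose and 1 fell in eya-GAL4 (median -0.55). Summed over all odorant receptor rows the level was 12.7 to 20.4 CPM in sorted and 19.0 to 23.0 CPM in unsorted libraries.

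Between the strains no member passed the threshold. In sorted cells the edgeR fit called 0 of the 24 tested members between tj-GAL4 and eya-GAL4, where 0.111% of all genes were called (0.0239% higher and 0.0875% lower), and 3 members had an unadjusted p under 0.05. DESeq2, run without the count filter, called 1 (1.39% of all genes), Obp56a, which had 3.44 and 3.22 CPM in tj-GAL4 sorted cells, against 9.52 and 13.7 CPM in eya-GAL4 sorted cells (edgeR log2 -1.80 ± 0.43, adjusted p = 0.229). For Obp44a the log2 fold change of tj-GAL4 over eya-GAL4 sorted cells was -0.84 ± 0.46 (adjusted p = 0.498), and for Obp99a it was -1.14 ± 0.43 (adjusted p = 0.447). The groups did not overlap for either gene, and at 2 libraries a group a difference of this size was not resolved.

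Of the 24 tested members 19 lay below 0 and 5 above in tj-GAL4 over eya-GAL4 sorted cells, with a median of -0.61 beside 0.12 over all genes. Under the deposited RPM (pseudocount 1) 12 lay on either side, and the median over all genes moved by 0.32. Fitted on the sorted libraries alone, 4 of 16 tested members were called lower in tj-GAL4, Obp56a, Obp56d, Obp56g and Obp99d, where 10.9% of all genes were called (4.83% lower). Without tj-GAL4 unsorted replicate 1 or replicate 2 the fit over the other 7 libraries called 3, Obp56a, Obp56d and Obp56g, beside 5.94% and 5.89% of all genes.

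In unsorted samples edgeR also called 0 of 24 members between tj-GAL4 and eya-GAL4, where 0.0716% of all genes were called (0.0239% higher and 0.0477% lower), and 4 had an unadjusted p under 0.05. DESeq2 called 3 higher in tj-GAL4, Obp83ef, Obp99b and Obp99c (3.07% of all genes), and limma on log2(RPM + 1) called the last 2 of these (1.36%). Without tj-GAL4 unsorted replicate 1, 7 of 20 tested members were called, where 31.5% of all genes were. Obp83ef had 2.08 and 1.89 CPM in tj-GAL4 unsorted samples, against 0.125 and 0.133 CPM in eya-GAL4 unsorted samples (edgeR log2 3.87 ± 0.77, adjusted p = 0.143).

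Whether the rise on sorting differed between the strains was tested as the difference of both fold changes. The 2 comparisons share no library. No member was called, nor was any gene (0% of all genes), with 8 members at an unadjusted p under 0.05. The difference, tj-GAL4 minus eya-GAL4, was -1.91 ± 0.66 for Obp44a and -2.02 ± 0.61 for Obp99a on the log2 scale, both at an edgeR adjusted p of 0.330. DESeq2 called 4 members lower in this difference, Obp44a, Obp99a, Obp99b and Obp99c, beside 2.90% of all genes lower. Without tj-GAL4 unsorted replicate 1 edgeR called 9 of 20 tested members, all lower, beside 33.7% of all genes (20.4% lower).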

How the data were processed

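RNA of sorted and unsorted testis cells was measured in 8 libraries. The authors aligned reads to dm6 with Bowtie 1.2.2 and counted them with HTSeq, per the submitters' processing notes, which also list FastQC and DESeq2. The annotation release, strand setting and treatment of multiple matches were not given in the sources used here. The deposited raw counts per gene of 16018 rows and the deposited gene lengths were used, with the deposited RPM (reads scaled by the authors to 1000000) as an alternative. The RPM imply library totals of 30669063 to 38507084 reads, of which gene counts were 28.0% to 71.6%.

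Counts were tested with edgeR 4.0.16 (R 4.3.3): genes of at least 1 CPM in at least 2 libraries (12570), TMM scaling, 1 fit over the 4 groups without a replicate block, a two-sided quasi-likelihood test and Benjamini-Hochberg adjustment, called at 0.05. The p-values measure the spread between these samples. CPM were TMM scaled, TPM were computed from counts and deposited lengths, and no sample column was unmatched. The alternatives were DESeq2 1.42.0 on all rows with its own filtering, limma 3.58.1 on log2(RPM + 1) and log2(RPM + 0.1), other filters and scaling, and leaving out each library. Overlaps come from the Ensembl annotation on dm6 coordinates. Tested members called in any comparison and the 4 members of highest mean TPM were given fold changes, as were Obp56d and Obp83cd as cluster neighbours of called members, and of marker lists only those beside a result are named. Members and lists were chosen with earlier results of these data known. Sequences were not analysed here.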

Additional observations from a re-analysis of the deposited data

How the results depend on the processing

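Higher Obp44a and Obp99a on sorting kept their calls under every alternative run except the tj-GAL4 libraries alone for Obp44a. Counts of called members moved by more than 1.5 times as follows. DESeq2, run on all 16018 rows without the count filter, called 12 in tj-GAL4 (18.9% of all genes with an adjusted p), 1 of them, Obp56c, outside the 24 tested members. It called 1, 3 and 4 for sorted cells between strains, unsorted samples between strains and the difference of the fold changes. Fits on the compared groups alone called 1 in tj-GAL4, 14 in eya-GAL4 and 4 between sorted groups. Limma called 4 in eya-GAL4 at pseudocount 1, and 2 between unsorted samples at either pseudocount. Leaving out 1 library gave 2 to 12 in tj-GAL4, 3 to 13 in eya-GAL4, 0 to 3 and 0 to 7 between strains (sorted, unsorted) and 0 to 9 for the difference. The eya-GAL4 log2 fold change of Obp99c, -0.44, ranged from -0.97 to 0.17 with 1 library left out, the last without eya-GAL4 unsorted replicate 3.

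The family's mean share of gene counts was 1.86% (tj-GAL4 sorted), 3.15% (eya-GAL4 sorted), 0.137% (tj-GAL4 unsorted) and 0.103% (eya-GAL4 unsorted). Against the totals implied by the RPM it was 0.995%, 1.52%, 0.0799% and 0.0492%. Without mitochondrially encoded genes it was 2.22%, 3.83%, 0.181% and 0.109%.

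Whether same-numbered tj-GAL4 samples belong together was not settled. Their deviations from the group means gave r = -0.35 over 12570 genes. With 2 libraries a group this sets 1 difference against another, and tj-GAL4 unsorted replicate 2 stood apart, so it cannot decide the pairing. The eya-GAL4 unsorted columns carry no matching number. A replicate block gave 8 called members in tj-GAL4 (9.47% of all genes), 8 in eya-GAL4 (46.6%) and 0 elsewhere. The crossed pairing, chosen after seeing the data, gave 10 (21.0% of all genes), 9 (59.2%) and 0. Leaving Obp44a and Obp99a out of the fit, also chosen after seeing the data, left 5 calls in each enrichment. Of all genes 11.3% were called there in tj-GAL4 and 47.8% in eya-GAL4. With 2 libraries a group, scarce members below about 1 CPM could not be resolved. The cause of these shifts was not tested.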
